A study of Mus musculus with 20 samples.

Results

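Transcripts of 10 collagen genes that build the fibrils and the fibril surface of the corneal stroma were followed across age: *Col1a1*, *Col1a2*, *Col3a1*, *Col5a1* and *Col5a2* (fibrillar), *Col6a1*, *Col6a2* and *Col6a3* (beaded filaments), and *Col12a1* and *Col14a1* (fibril-associated). They were taken by symbol from a table of 24552 genes, and the list was chosen with earlier results of these data known. All 10 were among the 11288 genes with a mean of at least 10 normalized counts that entered the tests. The libraries came from the corneal epithelium of naïve wild-type female C57BL/6J (B6) mice, removed from the stroma by debridement, and each library held both corneas of 1 animal. There were 5 libraries at each of 4 ages, namely young (2 to 3 months), 12-month (12 to 13 months), 18-month (18 to 19 months) and 24-month (24 to 25 months). No group carried a transgene or a treatment, so age was the only labelled difference. The paper states that its mice were bought, aged in house or obtained from the National Institute of Aging. It does not give the source of each age group. RNA was primed from its poly(A) tail, so that reads fell near the 3′ end of each transcript.

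Fibrillar collagens form the load-bearing fibrils of connective tissue. In the cornea, type I collagen is the main fibril component, type V collagen is mixed into the same fibrils and limits their diameter, and type III collagen is a minor partner that is more abundant in skin, vessels and scars. Type VI collagen assembles from chains of different genes into beaded filaments between the fibrils, while types XII and XIV attach to the fibril surface and help to space and bind fibrils. These proteins are made mainly by keratocytes, the fibroblast-like cells of the stroma, and by fibroblasts of neighbouring tissue.

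The genes lie on 7 chromosomes of the GRCm38 build. *Col3a1* (chr1:45311538-45349706) and *Col5a2* (chr1:45374331-45503282) are neighbours on opposite strands with 24624 bases between them, and *Col6a2* (chr10:76595756-76623630) and *Col6a1* (chr10:76708792-76726044) are neighbours on the same strand. The others are *Col6a3* (chr1:90766860-90844001), *Col5a1* (chr2:27886381-28039510), *Col1a2* (chr6:4505618-4541543), *Col12a1* (chr9:79598987-79721141), *Col1a1* (chr11:94936224-94953042) and *Col14a1* (chr15:55307644-55520803). Exons of *Col3a1* share 141 bases with Gm47302, a microRNA gene annotated on the same strand. Exons of *Col5a1* share 99 and 113 bases with a pair of noncoding genes on the opposite strand, 2810430I11Rik and Gm13372. Whether the counting used strand is not given in the sources used here. RefSeq promoter windows (GRCm38.p6) were at hand for 6 of the 10 genes, and not for *Col1a1*, *Col5a2*, *Col12a1* and *Col14a1*. The 250 bases before the annotated start are shown for *Col1a2* and *Col3a1*, fibrillar genes that were called lower at every age, and for *Col6a3*, which had the lowest log2 fold change at 24 months. The windows are chr6:4505368-4505617 (plus strand), chr1:45311288-45311537 (plus strand) and chr1:90843972-90844221 (minus strand), the last counted from a start site that lies inside the full span of the gene. They run 5′ to 3′ on the gene's strand, and capitals mark matches on either strand to the TATA box, searched as TATAAA, the box spelled CCAAT, and the GC box, which was searched as GGGCGG.
Col1a2: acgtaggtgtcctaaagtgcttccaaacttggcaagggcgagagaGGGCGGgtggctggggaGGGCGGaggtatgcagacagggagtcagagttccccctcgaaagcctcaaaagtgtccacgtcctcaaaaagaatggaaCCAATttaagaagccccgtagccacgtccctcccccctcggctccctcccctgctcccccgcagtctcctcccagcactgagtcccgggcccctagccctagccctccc
Col3a1: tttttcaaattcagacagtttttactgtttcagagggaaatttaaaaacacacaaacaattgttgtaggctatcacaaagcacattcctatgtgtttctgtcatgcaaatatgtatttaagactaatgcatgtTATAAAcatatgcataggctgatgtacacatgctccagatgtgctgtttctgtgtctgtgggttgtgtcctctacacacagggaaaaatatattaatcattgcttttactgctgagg
Col6a3: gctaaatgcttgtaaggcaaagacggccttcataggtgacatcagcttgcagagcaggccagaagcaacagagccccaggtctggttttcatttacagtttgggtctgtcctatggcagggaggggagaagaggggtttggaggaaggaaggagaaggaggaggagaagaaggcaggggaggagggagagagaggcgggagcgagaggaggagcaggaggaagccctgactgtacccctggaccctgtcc
The *Col1a2* window held a CCAAT box that begins 109 bases before the start and GC boxes at 205 and 188 bases, with 62% G and C. In contrast, the *Col3a1* window held 35.2% G and C and 1 TATA box match at 117 bases, and the *Col6a3* window held 57.2% G and C and none of the 3 motifs. Across all 32851 windows of the table, 12.4% held TATAAA, 33.8% held CCAAT and 32.7% held GGGCGG on either strand, and the median was 52.4% G and C. No motif was therefore shared by these 3 windows, and a match is a description of the letters only.

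Reads on genes ranged from 6699383 to 10762360 per library. The labelled tissue was checked by its markers: 7 corneal epithelial genes, *Krt12* among them, summed to between 390186 and 501536 normalized counts in every library, and *Krt12*, the cornea-specific keratin, had a log2 fold change of −0.02 at 24 months (limma adjusted p = 0.983). Markers of other cells were also read. Stromal keratocyte genes other than collagens (9 genes) summed to 829 to 1536 normalized counts in the young libraries, 443 to 1097 at 12 months, 432 to 1144 at 18 months and 251 to 759 at 24 months, with *Ptgds* at 0 in every young and 24-month library. That sum was mostly *Dcn*, and 6 of its 7 tested genes were lower at 24 months (median log2 fold change −1.94). Conjunctival or dermal fibroblast genes (6 genes) summed to 256 to 608 in the young and 152 to 350 at 24 months. The largest part was *Fbln1*, with means of 192 and 181 (log2 fold change −0.11). At 24 months all 6 were lower, with a median of −1.79, and 1 was called. Over all tested genes 49.3% were lower and 0.47% were called lower. The part of stromal cells carried over by scraping in the collagen values was not tested. From young to 24 months, the summed ranges were 42580 to 63554 and 37420 to 44117 for conjunctival epithelium, 146 to 266 and 93.2 to 204 for leukocytes, and 66.7 to 158 and 28.7 to 135 for corneal endothelium. The conjunctival sum is mostly *Krt13*. Of that list *Muc5ac*, named after its values were seen, was under the filter and not tested. It went the other way, with 2, 0, 50 and 23 reads over the young, 12-month, 18-month and 24-month libraries. All 4 tested conjunctival genes were lower at 24 months, and *Krt4*, a keratin of nonkeratinized epithelia, was called at each age with log2 fold changes of −1.07, −1.09 and −1.54 (limma adjusted p = 7.07e-04, 6.23e-04 and 2.17e-06). *Krt19* was called at 12 and 18 months (−0.78 and −0.77), and both were named after their values were seen. Their part in the collagen values was not tested. Vessel and pericyte genes were scarce, at 14.8 to 47.1 and 8.78 to 32 for vessel endothelium and 31.8 to 77.8 and 8.70 to 47.3 for pericytes, with *Rgs5* at 0 in every 24-month library.

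Taken as a sum, the 10 collagens had 1215 to 3708 normalized counts in the young libraries, 365 to 763 at 12 months, 386 to 623 at 18 months and 233 to 529 at 24 months. Every aged library lay below every young one. That sum was mostly type I collagen, with young means of 929 for *Col1a1* and 1204 for *Col1a2* within a mean sum of 2787. The collagens made up 0.0145% to 0.046% of reads on genes in the young and 0.00295% to 0.00645% at 24 months, so these are rare transcripts in the epithelial sheet at every age. In a bulk sample, fewer collagen-expressing cells and less collagen RNA per cell cannot be told apart.

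To learn which collagens changed at each age, every aged group was compared with the young group (limma on the deposited log2 values, Benjamini-Hochberg adjustment over all tested genes; called at an adjusted p of 0.05 or less and at least 1.2-fold). At 12 months 3 of the 10 collagens were called, *Col1a1*, *Col1a2* and *Col3a1*, all lower, against 0.301% of all tested genes called lower. At 18 months 4 were called, the same 3 and *Col5a2*, against 0.337%. At 24 months 6 were called, with *Col6a1* and *Col6a3* added, against 0.47%. None was called higher. *Col5a1*, *Col6a2*, *Col12a1* and *Col14a1* were called at no age. The median log2 fold change of the collagens was −2.18, −2.72 and −3.24 at the 3 ages, whereas that of all tested genes lay between −0.01 and 0.01. *Col5a1*, *Col6a1* and *Col6a2* averaged under 10 normalized counts over the 15 aged libraries and reached the tests only through their young values, so the count over the list is a description.

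**Figure D1:**
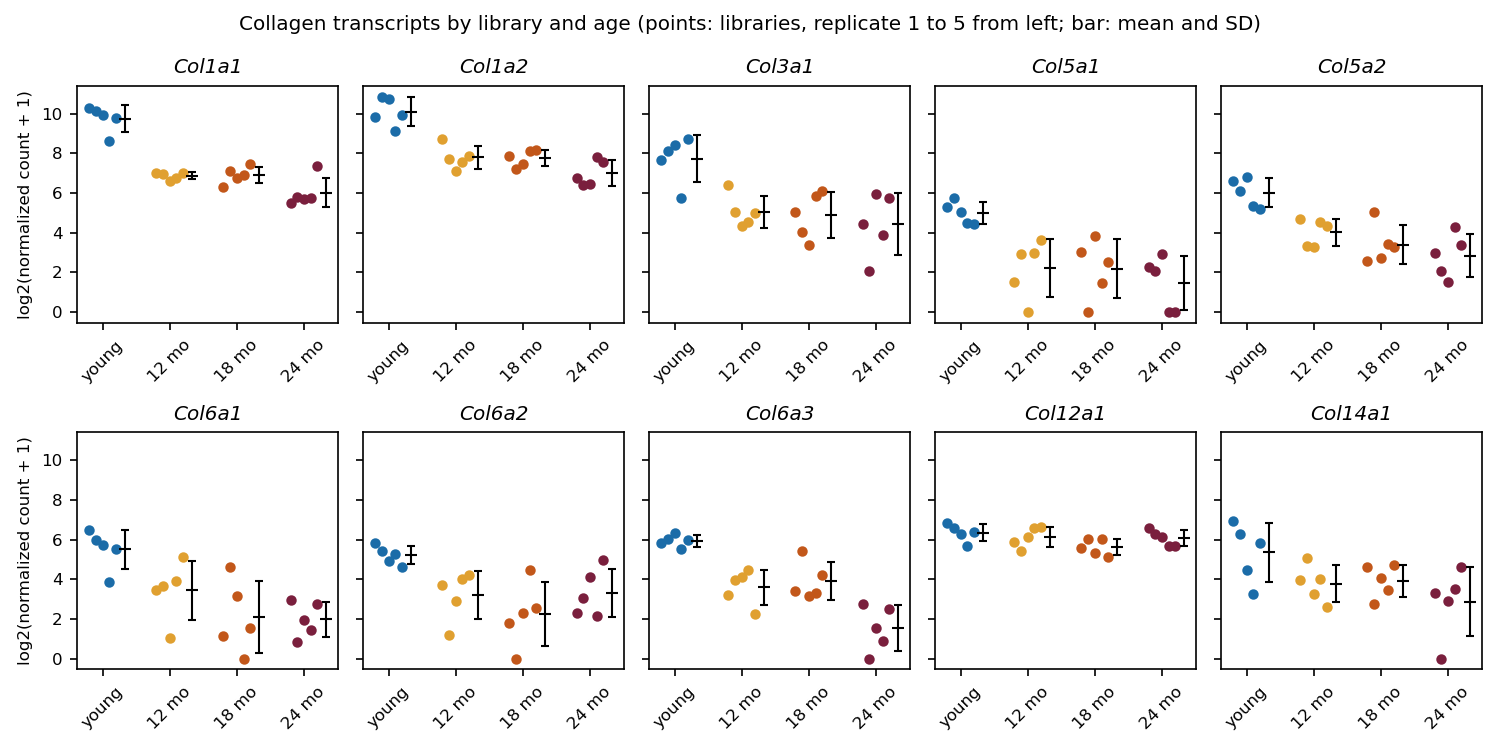
Each panel plots 1 collagen transcript, with log2(normalized count + 1) against age, 1 point per library (5 per age, replicates 1 to 5 from left to right) and the mean with its SD as a bar. The young points stand apart above all aged points for *Col1a1*, *Col1a2* and *Col5a2*, while those of *Col12a1* overlap the aged points.

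*Col1a1*, which encodes the more abundant chain of type I collagen, had 1255, 1118, 991, 396 and 882 normalized counts in young replicates 1 to 5. The values were 126, 125, 97.5, 106 and 127 at 12 months, 78.1, 136, 109, 120 and 173 at 18 months, and 44.9, 55.3, 51.1, 52.2 and 162 at 24 months. Young replicate 4 was the lowest of its group, yet it remained above all 15 aged libraries. The log2 fold changes were −2.89 at 12 months (standard error 0.303, limma adjusted p = 1.75e-06), −2.85 at 18 months (adjusted p = 4.77e-06) and −3.74 at 24 months (adjusted p = 1.12e-08). At 24 months, replicate 5 stood above the other 4 libraries, and without it the log2 fold change was −4.07 with *Col1a1* still called.

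*Col1a2*, the partner chain of type I collagen, had 916, 1851, 1722, 550 and 979 normalized counts in the young. It had 423, 207, 139, 189 and 233 at 12 months, 234, 148, 173, 276 and 284 at 18 months, and 109, 83.8, 88.0, 221 and 190 at 24 months. As with *Col1a1*, every aged library was below every young library, and young replicate 4 was the lowest of its group. The log2 fold changes were −2.30 (standard error 0.314, limma adjusted p = 9.3e-05), −2.34 (adjusted p = 1.09e-04) and −3.09 (adjusted p = 9.64e-07) at 12, 18 and 24 months. Both type I chains were called at all 3 ages under each of the 9 other analysis settings and with any of the 20 libraries left out.

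*Col3a1*, the only chain of type III collagen, was more variable. The young libraries had 201, 278, 348, 53.0 and 415 normalized counts, and the aged libraries had 83.6, 31.6, 19.3, 22.0 and 30.6 at 12 months, 31.7, 15.2, 9.53, 57.3 and 68.7 at 18 months, and 20.5, 3.25, 60.5, 13.9 and 53.6 at 24 months. Young replicate 4, again the lowest, overlapped the highest libraries at each aged group, and the other 4 young libraries did not. The log2 fold changes were −2.68 (standard error 0.639, limma adjusted p = 0.0481), −2.85 (adjusted p = 0.0226) and −3.31 (adjusted p = 0.00502). The 12-month call was kept under 4 and the 18-month call under 7 of the 9 other analysis settings. At 12 months it was lost when any 1 of 13 libraries was left out (adjusted p = 0.0505 to 0.156); it was kept only without young replicate 4, 12-month replicate 1, 18-month replicate 2 or 3, or 24-month replicate 2, 3 or 5. At 18 months it was lost without young replicate 2, 3 or 5 or 18-month replicate 1, 2 or 3 (adjusted p = 0.051 to 0.112). The 24-month call was kept under all of these.

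The type V chains rested on fewer reads. *Col5a2* had 97.6, 68.2, 113, 39.2 and 36.0 normalized counts in the young, 24.8, 9.21, 8.57, 22.0 and 19.1 at 12 months, 4.88, 31.7, 5.56, 9.85 and 8.70 at 18 months, and 6.83, 3.25, 1.89, 18.3 and 9.41 at 24 months. All aged libraries were below all young libraries. Its log2 fold change was −1.99 at 12 months (standard error 0.596, limma adjusted p = 0.164), −2.62 at 18 months (adjusted p = 0.0266) and −3.17 at 24 months (adjusted p = 0.00368). The 18-month call was kept under 5 of the 8 settings that tested this gene, and was lost without young replicate 1, 2 or 3 or 18-month replicate 1, 3, 4 or 5 (adjusted p = 0.0615 to 0.115).

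*Col5a1*, which encodes the chain that *Col5a2* pairs with, had 38.4, 53.2, 32, 21.2 and 20.9 normalized counts in the young libraries. It was down to 0 to 11.5 at 12 months, 0 to 13.5 at 18 months and 0 to 6.62 at 24 months, where the 5 libraries held 15 reads in all and 2 of them held none. A library with 0 reads allows up to 3 by counting error alone. No aged library reached the lowest young library, and yet the log2 fold change of −3.54 at 24 months (standard error 0.91) had a limma adjusted p of 0.0666. It passed the threshold under 3 of 8 other settings, and without 12-month replicate 3 (adjusted p = 0.0407) or 18-month replicate 2 (0.034).

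For type VI collagen, *Col6a3*, the largest of its chains, had 55.9, 63.7, 80.4, 45.6 and 62.6 normalized counts in the young. It had 8.27, 14.5, 16.1, 21.0 and 3.82 at 12 months and 9.76, 42.2, 7.94, 8.96 and 17.4 at 18 months. At 24 months it had 5.85, 0, 1.89, 0.87 and 4.71, which stand for 14 reads over the 5 libraries against 333 in the young. The 3 aged groups lay below all young libraries, with 18-month replicate 2 closest to them. Its log2 fold change was −2.35 at 12 months (standard error 0.628, limma adjusted p = 0.0989), −2.04 at 18 months (adjusted p = 0.227) and −4.40 at 24 months (adjusted p = 1.34e-04). The 24-month call held with any 1 library left out, with log2 fold changes from −4.71 to −4.01, but the size depended on the pseudocount because of the few reads, from −5.43 to −2.50 over all settings.

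*Col6a1* had 88.8, 63.0, 51.1, 13.8 and 44.6 normalized counts in the young libraries, with replicate 4 low once more. It had 10.1, 11.8, 1.07, 14.0 and 34.4 at 12 months, 1.22, 23.5, 7.94, 0 and 1.93 at 18 months, and 6.83, 0.813, 2.84, 1.74 and 5.65 at 24 months. Young and aged libraries overlapped at 12 and 18 months and were separate at 24 months. The log2 fold changes were −2.06 (standard error 0.851, limma adjusted p = 0.409), −3.42 (adjusted p = 0.0577) and −3.53 (adjusted p = 0.0406). The 24-month call was kept under 4 of 8 other settings. It was lost without young replicate 1, 2, 3 or 5, 12-month replicate 1 or 2, or 24-month replicate 1, 2, 3 or 4 (adjusted p = 0.0506 to 0.139), and an 18-month call appeared without young replicate 4, 12-month replicate 3 or 18-month replicate 2 (adjusted p = 0.0133 to 0.0387).

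*Col6a2*, its neighbour on chromosome 10, had 55.9, 42.0, 29.2, 38.1 and 23.7 normalized counts in the young. The values were 11.9, 1.32, 6.43, 15 and 17.8 at 12 months, 2.44, 0, 3.97, 21.5 and 4.83 at 18 months, and 3.90, 7.32, 16.1, 3.48 and 30.1 at 24 months. The young libraries were above every 12- and 18-month library, whereas 24-month replicate 5 fell within the young range. Its log2 fold changes were −2.01 (standard error 0.771, limma adjusted p = 0.353), −2.99 (adjusted p = 0.0753) and −1.90 (adjusted p = 0.376). At 18 months it passed the threshold without 12-month replicate 2 (adjusted p = 0.0474) or 18-month replicate 4 (0.0226).

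The fibril-associated collagens differed from each other. *Col12a1* had 114, 93.7, 76.7, 49.8 and 81.6 normalized counts in the young libraries and 94.6, 75.6, 70.0, 50.5 and 49.9 at 24 months, with 42.1 to 96.8 at 12 months and 33.8 to 63.6 at 18 months. Young and aged values overlapped at every age. Its log2 fold changes were −0.22, −0.73 and −0.28 (standard error 0.303, limma adjusted p = 0.893, 0.569 and 0.813), and this gene was called under no other setting. *Col14a1* had 121, 77.2, 21.0, 8.48 and 56.0 normalized counts in the young, the widest relative range of the 10 genes within that group, and 8.78, 0, 6.62, 10.4 and 23.5 at 24 months. Young replicate 4 lay among the aged libraries. Against the young, *Col14a1* had log2 fold changes of −1.57, −1.43 and −2.48 at the 3 ages in order (standard error 0.758, adjusted p = 0.516, 0.738 and 0.16), and no setting called it.

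**Figure D2:**
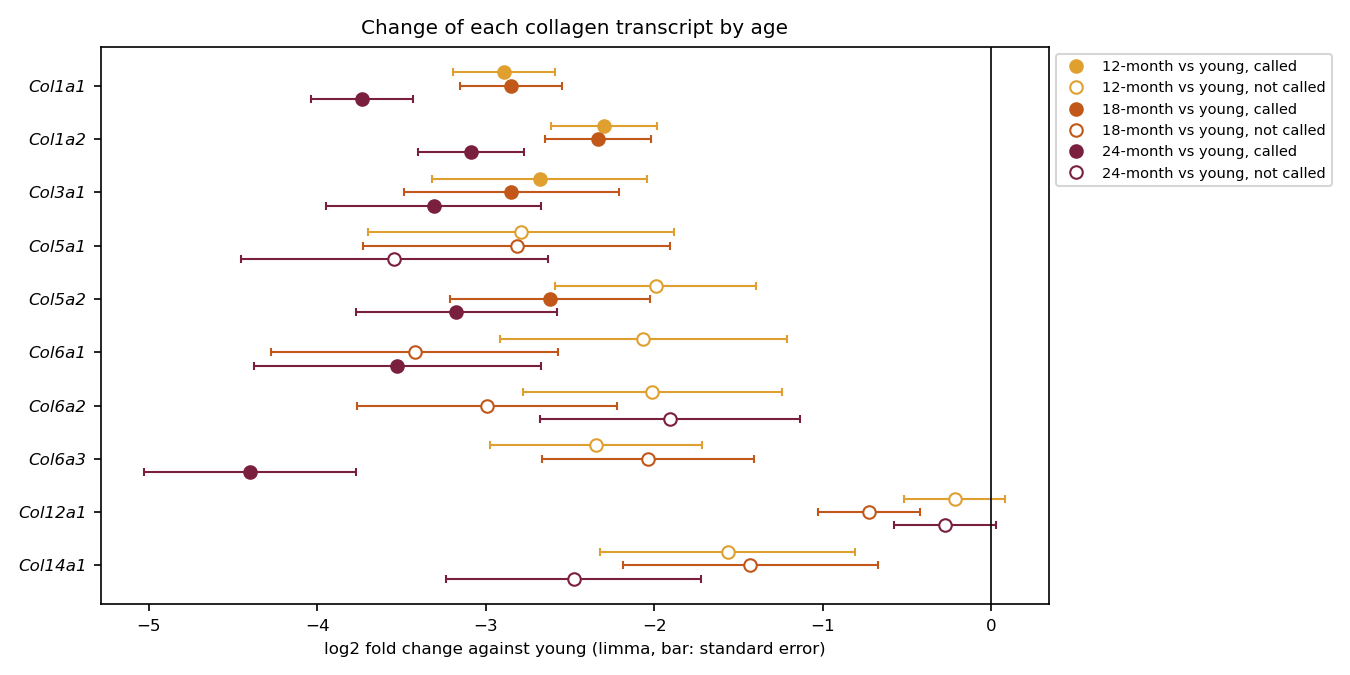
The log2 fold change of each collagen against young is plotted on the horizontal axis for the 3 aged groups, with the limma standard error as a bar and filled symbols for called genes. All symbols lie below 0, from −4.40 (*Col6a3* at 24 months) to −0.22 (*Col12a1* at 12 months).

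A count that uses no model gave a partly different set of genes, and *Col3a1*, called at every age, was not in it. The 5 aged libraries were all below the 5 young libraries for 6 of the 10 collagens at 12 months and for the same 6 at 18 months, namely *Col1a1*, *Col1a2*, *Col5a1*, *Col5a2*, *Col6a2* and *Col6a3*, against 1.06% and 1.01% of all tested genes. At 24 months this held for 6 collagens, against 1.55%, with *Col6a1* in place of *Col6a2*. *Col5a1*, *Col6a1* and *Col6a2* reached the tests only through their young values, which favours such a separation. These counts are therefore a description.

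Most of the difference was present at the first aged time point. The 12-month change was 77.4% of the 24-month change on the log2 scale for *Col1a1*, 74.4% for *Col1a2* and 81% for *Col3a1*, and 53.3% for *Col6a3* and 58.6% for *Col6a1*. These shares rest on the same young libraries and carry no test. The aged groups were therefore compared with each other. No collagen was called between 12 and 18 months, between 12 and 24 months or between 18 and 24 months (limma), against 0.00886%, 0.0886% and 0% of all tested genes called lower, and limma-voom called none either. At an unadjusted p under 0.05, 0, 3 and 3 collagens passed, against 7.43%, 14.7% and 5.31% of all tested genes. *Col6a3* was lower at 24 than at 12 months by a log2 fold change of −2.05 (limma adjusted p = 0.137) and than at 18 months by −2.36 (adjusted p = 0.919). *Col1a1* differed by −0.84 (adjusted p = 0.201) and −0.89 (adjusted p = 0.919), and *Col1a2* by −0.79 (adjusted p = 0.248) and −0.75 (adjusted p = 0.919). From 12 to 18 months these genes had values of 0.31, 0.04 and −0.04.

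The balance between chains was examined as the log2 ratio of normalized counts within a library, which removes what is common to both transcripts of that library. A ratio at a single age also reflects how the 3′ end of each transcript was captured, so only its difference between ages was compared. For 11 pairs and 3 ages, aged and young libraries were compared by a two-sided exact permutation test (5 against 5, smallest possible p = 0.00794). After adjustment over the 33 tests no ratio passed an adjusted p of 0.05, while 8 had an unadjusted p under 0.05. With that smallest p, even a fully separated ratio passes only when enough other ratios tie with it. Not passing is therefore no sign that a ratio was unchanged.

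The *Col1a1*/*Col1a2* log2 ratio was −0.34 ± 0.51 in the young and −0.98 ± 0.71 at 24 months (SD, n = 5). The difference was −0.59 at 12 months (95% interval −1.32 to 0.07), −0.51 at 18 months (−1.29 to 0.24) and −0.65 at 24 months (−1.58 to 0.22; exact permutation p = 0.151, adjusted p = 0.332). The intervals thus covered both no change and a fall of *Col1a1* relative to *Col1a2* of more than 1 log2 unit. *Col3a1*/*Col1a1* differed from young by 0.21, 0.00 and 0.42 at the 3 ages, with a 24-month interval of −1.23 to 2.01. *Col5a2*/*Col1a1* differed by 0.90 at 12 months (−0.05 to 1.84; exact permutation adjusted p = 0.196), 0.23 at 18 months and 0.56 at 24 months.

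Among the type VI chains, the *Col6a2*/*Col6a3* log2 ratio was 0.00, −0.59, −1.43, −0.25 and −1.36 in the young libraries and −0.48, 3.06, 2.56, 1.26 and 2.45 at 24 months. In 4 of the 5 24-month libraries the ratio was above all young libraries, and the difference was 2.50 (95% interval 0.81 to 3.92; exact permutation p = 0.0238, adjusted p = 0.112). It rested on 66 reads of *Col6a2* and 14 of *Col6a3*. At 12 and 18 months the differences were 0.34 and −0.95 with intervals of −1.54 to 2.21 and −3.42 to 1.17. *Col6a1*/*Col6a3* differed by 0.28, −1.39 and 0.87, and *Col6a1*/*Col6a2* by −0.05, −0.43 and −1.62, with exact permutation adjusted p from 0.196 to 1. *Col5a1*/*Col5a2* differed by −0.80, −0.20 and −0.37, and its 24-month interval of −3.02 to 2.02 shows how little these reads can resolve.

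For the fibril-associated pair, the *Col12a1*/*Col14a1* log2 ratio was 0.99 ± 1.07 in the young and 3.20 ± 1.94 at 24 months (SD, n = 5). The difference was 2.20 at 24 months (95% interval 0.05 to 4.54; exact permutation p = 0.0397, adjusted p = 0.164), 1.35 at 12 months and 0.70 at 18 months. Here 3 of 5 24-month libraries lay above all young libraries. Other pairs with *Col12a1* were not tested.

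**Figure D3:**
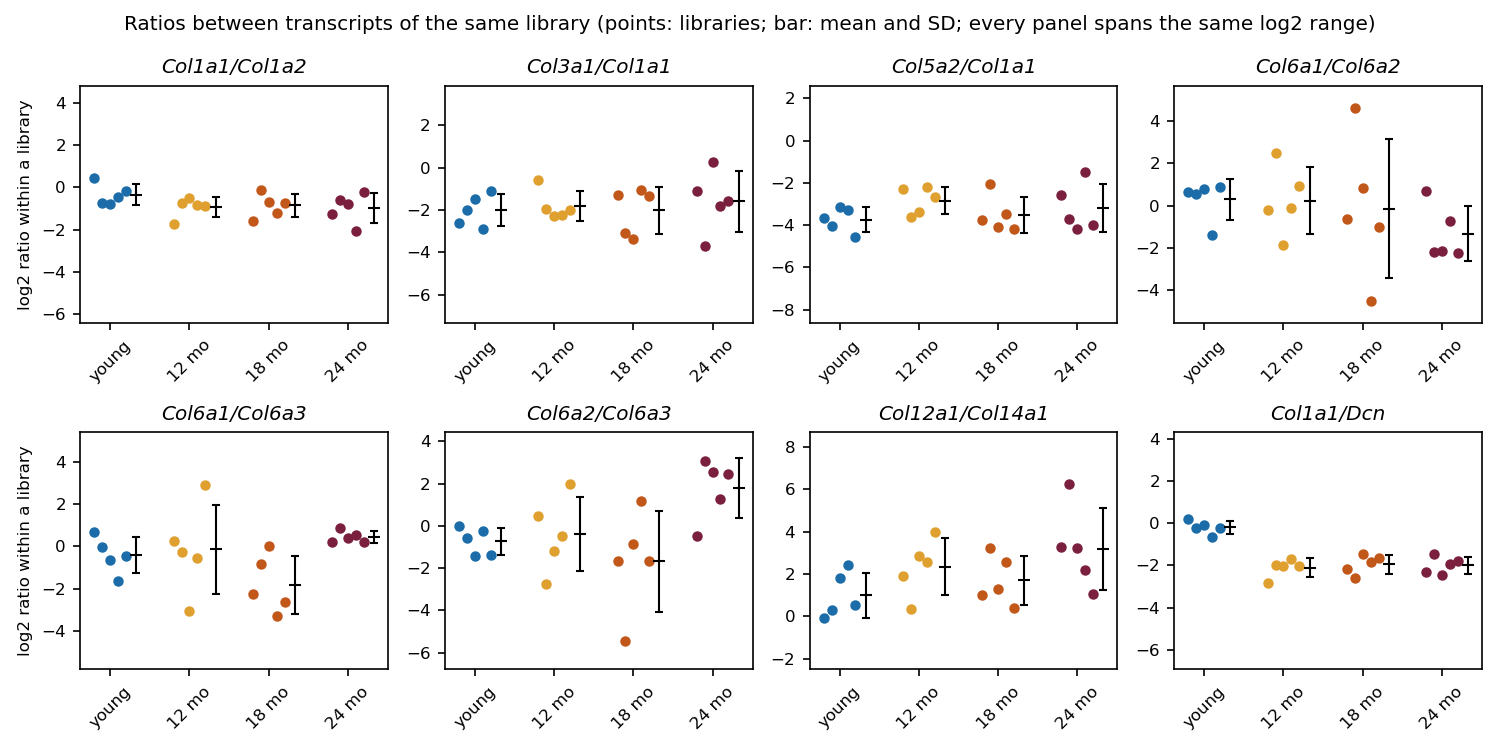
Log2 ratios between transcripts of the same library are plotted by age, 1 point per library, with the mean and SD as a bar and the same span on each vertical axis. The *Col1a1*/*Dcn* panel has all 15 aged libraries below the 5 young libraries, and the 18-month *Col6a1*/*Col6a2* ratios have the largest SD of all pairs and ages (3.30).

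Type I collagen was then set against proteoglycans that keratocytes also make. *Dcn* encodes decorin, which binds the surface of type I fibrils, and it had 1089, 1309, 1048, 619 and 1046 normalized counts in the young and 225, 155, 284, 199 and 571 at 24 months (log2 fold change −1.94, limma adjusted p = 2.5e-04). The *Col1a1*/*Dcn* log2 ratio was between −0.64 and 0.21 in the young libraries, between −2.84 and −1.67 at 12 months, between −2.60 and −1.48 at 18 months and between −2.45 and −1.47 at 24 months. No aged library reached a young one. The differences were −1.91 (95% interval −2.48 to −1.40), −1.75 (−2.35 to −1.22) and −1.79 (−2.35 to −1.25), each with the smallest exact permutation p the design allows (0.00794) and an adjusted p of 0.0655. With 10 in place of 1 as the pseudocount, all 3 had an adjusted p of 0.0291. Their unadjusted exact permutation p was still 0.00794, and the adjusted value fell because more of the other ratios also reached it.

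The same comparison is seen in single libraries. *Dcn* was at 905 normalized counts in 12-month replicate 1 and 832 in 18-month replicate 2, both above the 619 of young replicate 4. *Col1a1* was at 126 and 136 in these aged libraries and at 396 in the young one. The libraries were picked by their *Dcn* values. Of 2 further proteoglycan genes, *Lum* was at 46.0 and 109 in the aged libraries against 57.2 in the young one. *Kera* was at 0 and 91.5 against 14.8, so for 12-month replicate 1 the example rests on *Dcn* alone. The cause was not tested. Relative to *Lum*, which encodes lumican, another stromal proteoglycan, *Col1a1* differed from young by −1.37, −2.06 and −1.64 at the 3 ages (exact permutation adjusted p = 0.112, 0.0655 and 0.112). Relative to *Kera*, which encodes keratocan, the differences were 0.47, −1.62 and −1.12 (adjusted p = 0.726, 0.422 and 0.37). With 10 as the pseudocount, the *Lum* ratio passed at all 3 ages and the *Kera* ratio at 12 months (−1.18) and 24 months (−2.34), each with an exact permutation adjusted p of 0.0291, so the *Kera* values turned on the pseudocount. *Kera* was at 0 in 2 of the 12-month, 1 of the 18-month and 2 of the 24-month libraries. Its log2 fold change was −2.61 at 24 months (limma adjusted p = 0.376), and that of *Lum* was −2.10 (adjusted p = 0.0702).

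To see which transcripts moved together between libraries of the same age, the age means were removed from the log2 values and 8 relations with *Col1a1* were computed over 20 libraries (100000 permutations within ages, two-sided, adjusted over the 8). *Col1a1* and *Dcn* had Pearson r = 0.746 (permutation p = 0.00196, adjusted p = 0.0157) and Spearman rho = 0.743 (p = 7.6e-04, adjusted p = 0.00608). Over the 15 aged libraries r was 0.728. When the libraries farthest from the median of *Col1a1* were left out, 24-month replicate 5 and young replicate 4, r was 0.579. Without young replicate 4 alone r was 0.717 (permutation adjusted p = 0.0757), and without 24-month replicate 5 alone it was 0.598 (adjusted p = 0.0819), so that the relation did not pass without either library. For *Lum*, r was 0.595 (permutation p = 0.0241, adjusted p = 0.0878), rho was 0.623 (p = 0.00483, adjusted p = 0.0193), and r without those libraries was 0.446.

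With the other collagens examined, *Col1a1* had a lower r than with *Dcn* or *Lum*, a difference that was not tested. *Col1a1* and *Col1a2* had r = 0.514 (permutation p = 0.041, adjusted p = 0.0878; rho = 0.433, p = 0.0696, adjusted p = 0.111), which was 0.297 without the pair of extreme libraries. For *Col3a1*, r was 0.512 (permutation p = 0.077, adjusted p = 0.123) and rho was 0.338 (p = 0.174, adjusted p = 0.232). For *Col5a2*, r was 0.401 (permutation p = 0.137, adjusted p = 0.182) and rho was 0.532 (p = 0.0242, adjusted p = 0.0645). For *Col6a1*, r was 0.413 (permutation p = 0.0439, adjusted p = 0.0878) and rho was 0.46 (p = 0.0429, adjusted p = 0.0857). None of these passed the adjusted threshold, and without the extreme libraries r was 0.255, 0.356 and 0.304. *Kera* had r = 0.259 (permutation p = 0.356, adjusted p = 0.386) and rho = 0.229 (p = 0.369, adjusted p = 0.369), and r without the extreme libraries was −0.03. *Krt12* had r = −0.23 (permutation p = 0.386, adjusted p = 0.386) and rho = −0.23 (p = 0.311, adjusted p = 0.355), and r was −0.11 without them.

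**Figure D4:**
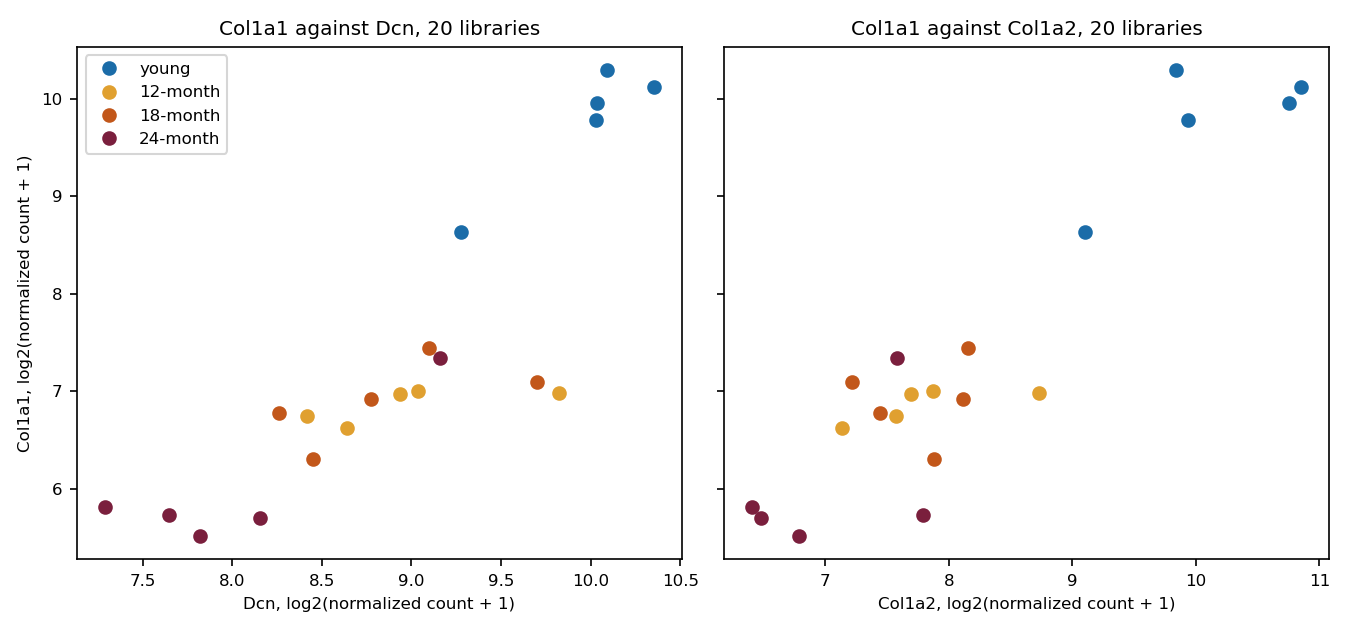
*Col1a1* is plotted against *Dcn* and against *Col1a2*, both as log2(normalized count + 1), with 1 point per library colored by age. The young libraries lie above the aged libraries in *Col1a1*. Only young replicate 4 falls within the aged range of *Dcn*, and the other young libraries lie above that range. The point of 24-month replicate 5 lies with the 18-month libraries.

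Over all tested genes outside the list, those whose age-centred values were most like *Col1a1* over 20 libraries were *Car13* (r = 0.751), *Dcn* (0.746), *Dcun1d4* (0.741), *Nt5e* (0.734) and *Ccdc122* (0.729). Of these, *Nt5e*, which encodes the surface enzyme CD73, was lower at 24 months by a log2 fold change of −1.72 (limma adjusted p = 2.37e-04), and *Car13*, *Dcun1d4* and *Ccdc122* had log2 fold changes of 0.19, 0.16 and −0.18. Of the 11278 tested genes outside the list, 157 had a higher r with *Col1a1* than its partner *Col1a2* did. For *Col3a1* and *Col14a1* these counts were 158 and 166. *Col14a1* had r = 0.509, *Col6a2* r = 0.292, *Col6a3* r = 0.272, *Col12a1* r = 0.03 and *Col5a1* r = −0.16. These are descriptions across libraries that share their depth and preparation.

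Genes that make, process, bind and degrade collagen were followed at 24 months. The lists held 20 genes of synthesis, 16 of processing and crosslinking, 8 proteoglycans, 12 of degradation and 7 of receptors. Genes under the filter were not tested. Of 14 tested genes of collagen synthesis (prolyl and lysyl hydroxylases, chaperones and export factors) none was called, the median log2 fold change was 0.03, and 2 had an unadjusted p under 0.05; *Mia3*, a factor for loading procollagen into transport carriers, had 0.04 (limma adjusted p = 0.955). Among 6 tested genes of processing and crosslinking, 1 was called lower, *Sparc*, a collagen-binding matrix protein (−1.97, adjusted p = 1.16e-06), with a list median of −0.49. The lysyl oxidase genes of this list, named after their values were seen, were under the filter. *Lox*, *Loxl1*, *Loxl2*, *Loxl3* and *Loxl4* had 94, 96, 74, 2 and 70 reads over the young libraries. At 24 months they had 4, 29, 10, 0 and 26 reads, without a test. The 7 tested fibril-associated proteoglycans had a median of −1.94, all 7 were lower, 6 had an unadjusted p under 0.05 and 1, *Dcn*, was called. Of 6 tested genes of degradation and 5 of collagen receptors none was called, with medians of −0.24 and −0.01, and 2 and 0 had an unadjusted p under 0.05. In the degradation list the gelatinase gene *Mmp2*, named after its value was seen, had a log2 fold change of −2.94 (limma adjusted p = 0.199). The membrane protease gene *Mmp14* was at 0.00 (adjusted p = 0.999), and the integrin gene *Itgb1* was at −0.01 (adjusted p = 0.993). These counts are set against the 0.47% of all genes called lower and the 0.31% called higher, with 49.3% of all genes below 0 and 9.97% at an unadjusted p under 0.05.

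Other collagens, 34 genes in the table, were mostly under the filter. The 9 that were tested had a median log2 fold change of −0.56 at 24 months, all 9 had a value below 0, 3 had an unadjusted p under 0.05 and none was called by limma, while 49.3% of all tested genes were below 0 and 9.97% had an unadjusted p under 0.05. Most abundant was *Col17a1*, the hemidesmosomal collagen of basal epithelial cells, with 9644 ± 1214 normalized counts in the young libraries and 8780 ± 300.4 in the 24-month libraries (SD, n = 5). Its log2 fold change was −0.13 (limma adjusted p = 0.728).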

How the data were processed

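RNA of debrided corneal epithelium was measured by bulk sequencing primed from the poly(A) tail in 20 libraries, 5 at each of 4 ages, grouped by the age in the labels and numbered as in the labels. The authors' pipeline used cutadapt for trimming, STAR for alignment (GRCm38), HTSeq for counts per gene and the relative log expression method of DESeq2 for normalization. Tool versions and the annotation are not given in the sources used here. The deposited table holds log2 values, taken after 1 was added to each normalized count. Columns with the authors' own fold changes and p-values, and 3 further tables that repeat the library columns, were not used. Each library's values rose in steps of 1 read, so whole reads were recovered for 100% of values (tolerance 0.001 reads), which gave depths of 6699383 to 10762360 reads on genes. No pair of libraries of the same age was alike within sampling noise (40 pairs, chi-square per degree of freedom 11.0 to 99.9).

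Genes that averaged 10 normalized counts or more were tested with limma 3.58.1 in R 4.3.3 (intensity trend, all 20 libraries, no covariates, Benjamini-Hochberg adjustment over 11288 genes). Fold changes are on the log2(value + 1) scale, which understates changes of low genes. Ratios and relations were computed with numpy 2.4.6 and scipy 1.17.1, and 95% intervals of ratio differences were found by inverting the exact permutation test. Intervals, p-values and the allowance of 3 reads behind a 0 cover the spread between these animals or counting error only. On simulated data for the 24-month and young comparison, in which 200 of the 11288 genes were changed, the limma step recovered 54.5% of them, and 6.84% of its calls were false. The simulation gave every gene the same dispersion, and its changes were smaller than those of most collagens here. Its rates therefore need not hold for these genes. The analysis was repeated without a fold threshold, with quantile normalization, without the filter or with one at 50, on only the compared groups, with a block for the replicate number, with pseudocounts of 0.1 and 10, by limma-voom on recovered reads, and with every library omitted in turn. The labels give no date or batch.

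The 10 collagens, the pathway and marker lists and the pairs were chosen with earlier results of these data known. Named besides the 10 members were, in each pathway list, the called genes with the largest 24-month change or else the most abundant gene, then *Kera*, *Lum*, *Dcn* and *Krt12*, and the 5 genes most like *Col1a1*. A further marker list is not reported here. Gene positions and promoter windows came from RefSeq (GRCm38.p6), and overlapping exons from GENCODE.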

Additional observations from a re-analysis of the deposited data

Results flagged for a closer look

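In groups of 5 libraries, 100 groups of values (the 10 collagens, *Kera*, *Lum*, *Dcn*, *Krt12* and the 11 ratios at 4 ages) were examined for a library that stood apart by more than 0.71 of the group's whole range. 9 were found. For independent, normally distributed values this cut flags about 1 in 20 groups. The counts were examined without a log scale and the groups share genes and libraries, so that rate need not hold here. 24-month replicate 5 stood apart in *Col1a1*, at 162 normalized counts against 44.9 to 55.3 in the others, and in *Lum*, at 67.8 against 3.78 to 20.5. In 12-month replicate 1, *Col3a1* was at 83.6 normalized counts against 19.3 to 31.6, and the *Col3a1*/*Col1a1* log2 ratio at −0.58 against −2.28 to −1.95. 18-month replicate 2 was at 31.7 normalized counts of *Col5a2* against 4.88 to 9.85, and at 42.2 of *Col6a3* against 7.94 to 17.4. 18-month replicate 4 was at 21.5 normalized counts of *Col6a2* against 0 to 4.83. Among the young libraries, replicate 4 had a *Col6a1*/*Col6a2* log2 ratio of −1.41 against 0.57 to 0.88, and replicate 2 had a *Col1a1*/*Kera* log2 ratio of 5.77 against 4.47 to 4.84.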

How the results depend on the processing

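*Col1a1* and *Col1a2* were called at every age, and *Col3a1*, *Col5a2* and *Col6a3* at 24 months, under each alternative that tested them, and the log2 fold change of all 10 collagens against young stayed below 0 throughout. The number of collagens called at 12 months was 6 with a pseudocount of 10 and 2 with quantile normalization, without the filter, with a filter at 50 or with a pseudocount of 0.1. At 18 months it was 2 without the filter and 8 with a pseudocount of 10. At 24 months it was 3 with a filter at 50, which left 4 of the 10 in the test. With 1 library left out, the number called was 2 to 3 at 12 months, 2 to 5 at 18 months (2 without young replicate 2 or 3 or 18-month replicate 1 or 3) and 5 to 7 at 24 months. Between aged groups it was 0 under all. Ratios past the threshold numbered 4, 2 and 3 at 12, 18 and 24 months with a pseudocount of 10, those of *Col1a1* to *Dcn* and *Lum* at each age among them. The only ratio between collagens to pass there was *Col5a2*/*Col1a1* at 12 months (1.27, exact permutation adjusted p = 0.0291). With 1 library left out no ratio passed, and where that library belonged to a compared group the smallest exact p was 0.0159. Relations past the threshold numbered 3 with a pseudocount of 10, and 0 to 3 with 1 library left out (0 without young replicate 4 or 24-month replicate 5, and 3 without 24-month replicate 1). The causes were not tested.

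Replicate numbers did not pair the libraries: deviations of same-numbered libraries of different ages had a median r of 0.00775 (−0.303 to 0.159), and 3 of 20 libraries were most like a library of their own number. With the replicate number as a block, 3, 3 and 5 collagens were called at 12, 18 and 24 months, and no ratio passed in the paired sign-flip test, whose smallest p is 0.0625.

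Directions turned for values near 0 or on few reads. With a pseudocount of 10, *Col5a1*/*Col5a2* differed from young by 0.0468, 0.384 and 0.40 at 12, 18 and 24 months, and *Col1a1*/*Kera* by −1.18 at 12 months. With a pseudocount of 0.1, *Col3a1*/*Col1a1* differed by −0.0389 at 18 months and *Col1a1*/*Kera* by 0.21 at 24 months. *Mmp14* was at −0.00185 with limma-voom and *Itgb1* at 0.00978 with quantile normalization. With 1 library left out, the log2 ratio differences ranged from −0.10 to 0.45, −0.24 to 0.34 and −0.0347 to 0.96 for *Col3a1*/*Col1a1* at the 3 ages, and from −0.79 to 0.76 at 18 and −1.06 to 0.35 at 24 months for *Col5a1*/*Col5a2*. They ranged from −0.13 to 0.40 for *Col5a2*/*Col1a1* at 18 months, from −0.61 to 0.47 at 12 and −1.62 to 0.66 at 18 months for *Col6a1*/*Col6a2*, and at 12 months from −0.47 to 1.01 for *Col6a1*/*Col6a3* and −0.25 to 0.92 for *Col6a2*/*Col6a3*. The 24-month log2 fold changes ranged from −0.0595 to 0.0892 for *Mia3*, −0.0224 to 0.0274 for *Mmp14*, −0.0674 to 0.0418 for *Itgb1* and −0.0907 to 0.0225 for *Krt12*, and r of *Col1a1* and *Kera* from −0.0122 to 0.515.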

Other observations

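Some collagens outside the 10 were too low to be tested and are given here as reads, named after their values were seen. *Col11a1*, a minor fibrillar collagen, had 121 reads over the 5 young libraries (0 to 41 per library) and 20, 11 and 11 reads at 12, 18 and 24 months. *Col27a1*, another fibrillar collagen, had 42 reads in the young group and 9, 8 and 0 at the aged groups. *Col8a2*, a collagen of the corneal endothelium and its basement membrane, had 85 reads in the young group and 24, 28 and 11. In contrast, *Col20a1* had 20 reads in the young group and 40, 76 and 46, and *Col9a3* had 0, 10, 6 and 33. No test was made of these values.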
